A study of Mus musculus with 6 samples.

Results

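Aminoacyl-tRNA synthetases are the enzymes that join each amino acid to its own tRNA. They were followed here in cells labelled HL-1, the name of a mouse line derived from atrial cardiomyocytes. The labels also give strain C57BL/6 and tissue heart. The set was defined by gene symbol, with earlier results of these data known, and holds 41 of the 22246 genes in the expression table. It comprises 21 synthetases of the cytosol, 17 of the mitochondrion, and 3 non-enzyme proteins, Aimp1, Aimp2 and Eef1e1, that hold several cytosolic synthetases together in the multisynthetase complex. Total RNA was sequenced from 3 libraries labelled control shRNA and 3 labelled Smyd4 shRNA, an shRNA against a SET and MYND domain protein. No label states if the libraries are separate cultures, and p-values then measure only the spread between these libraries, which may be technical.

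Each synthetase recognises an amino acid, activates it with ATP and transfers it to the matching tRNA, which then carries it to the ribosome. Mitochondria translate their own small genome and mostly use a separate set of synthetases, encoded in the nucleus and imported. Gars and Kars each serve both compartments from a single gene. When charged tRNA runs short, the kinase GCN2 (Eif2ak4) phosphorylates eIF2 and translation of the transcription factor ATF4 goes up. Genes for cytosolic synthetases are known targets of ATF4.

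Smyd4, the gene named by the shRNA label, stood at 12.5, 12.8 and 13.5 FPKM (fragments scaled for gene length and library depth) in the control libraries and at 12.6, 12.3 and 11.9 FPKM in the libraries labelled Smyd4 shRNA. The groups overlapped, the log2 difference was -0.07 with a 95% confidence interval from -0.16 to 0.02, and the exact two-sided permutation p was 0.2, where 3 libraries against 3 allow no p below 0.1. The mRNA level therefore does not check the label, and the second group is called the labelled libraries below. Of 12 cardiomyocyte markers, 11 were in the table, Nppa was not, and 4 reached 1 FPKM in every library. These were Gja1, Tnnt2, Gata4 and Nkx2-5, while Myh6 reached at most 0.0380 FPKM, Actc1 0.0597 FPKM, Tnni3 0.140 FPKM and Ryr2 0.0775 FPKM in any library. Markers on this list thus went both ways and do not check the HL-1 label. Their summed level was between 166 and 168 FPKM in the control and between 173 and 175 FPKM in the labelled libraries. Of 6 skeletal muscle markers 4 reached 1 FPKM in every library. The summed level of the 6 lay between 88.3 and 90.8 FPKM in the control and between 20.1 and 21.9 FPKM in the labelled libraries. That of 6 fibroblast markers went from between 239 and 246 to between 270.0 and 282 FPKM, and that of 5 macrophage markers from between 28.9 and 30.4 to between 19.5 and 21.3 FPKM, with Ptprc at most at 0.0185 and Adgre1 at 0.0298 FPKM. The 5 epithelial markers summed to between 6.63 and 7.73 FPKM in the control and between 23.2 and 25.2 FPKM in the labelled libraries, and the 4 endothelial markers to at most 0.567 FPKM. Only 1 epithelial marker reached 1 FPKM in every library, and it was called higher by the test given below. Of 5 tested fibroblast markers 2 were higher and 2 lower, and of 2 tested macrophage markers 1 was lower. Of 5 tested cardiomyocyte markers 3 were higher and 1 lower, and all 4 tested skeletal muscle markers were lower. Over all genes tested 25.1% were higher and 23.3% lower. The part of these shifts in the synthetase results was not tested, and in bulk RNA fewer cells of a type and less RNA per cell cannot be told apart. Recovered reads numbered between 23413799 and 25266874 in the control and between 20754976 and 26386949 in the labelled libraries.

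Most cytosolic synthetases were higher in the labelled libraries, while 14 of the 17 mitochondrial ones did not pass the test. All 41 genes were above the filter, a mean of 1 FPKM over the 6 libraries. Genes were compared on log2(FPKM + 0.5), a scale that understates the change of low genes, with limma, and a gene was called at a Benjamini-Hochberg adjusted p under 0.05 over all 11325 genes tested. By this rule 21 of the 41 members were higher, 3 were lower and 17 were not called. Across all genes tested 48.3% were called, 25.1% as higher and 23.3% as lower, so a call by itself is common in this comparison. The median log2 difference of the members was 0.15, beside 0.02 over all genes tested. Higher calls of at least 1.25-fold made up 6.47% of all genes, and 13 of the 41 members had one. The labelled libraries lay above every control library for 23 members and below every one for 3, beside 30.2% and 27.6% of all genes tested, 57.8% in either direction. On the recovered whole reads edgeR called 24 members higher and 3 lower, beside 23.3% and 26.3% of 13764 genes, 49.6% in all. Of the cytosolic synthetases 17 of 21 were higher, 2 lower and 2 not called, with a median log2 difference of 0.36. Among the 8677 genes with a mean in their range, 3.47 to 225 FPKM, 27.9% were called higher and 52.2% called in either direction. The mitochondrial synthetases had 3 of 17 higher and none lower, with a median of 0.08. Of their log2 differences 15 were above 0, most of them not called.

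**Figure D1:**
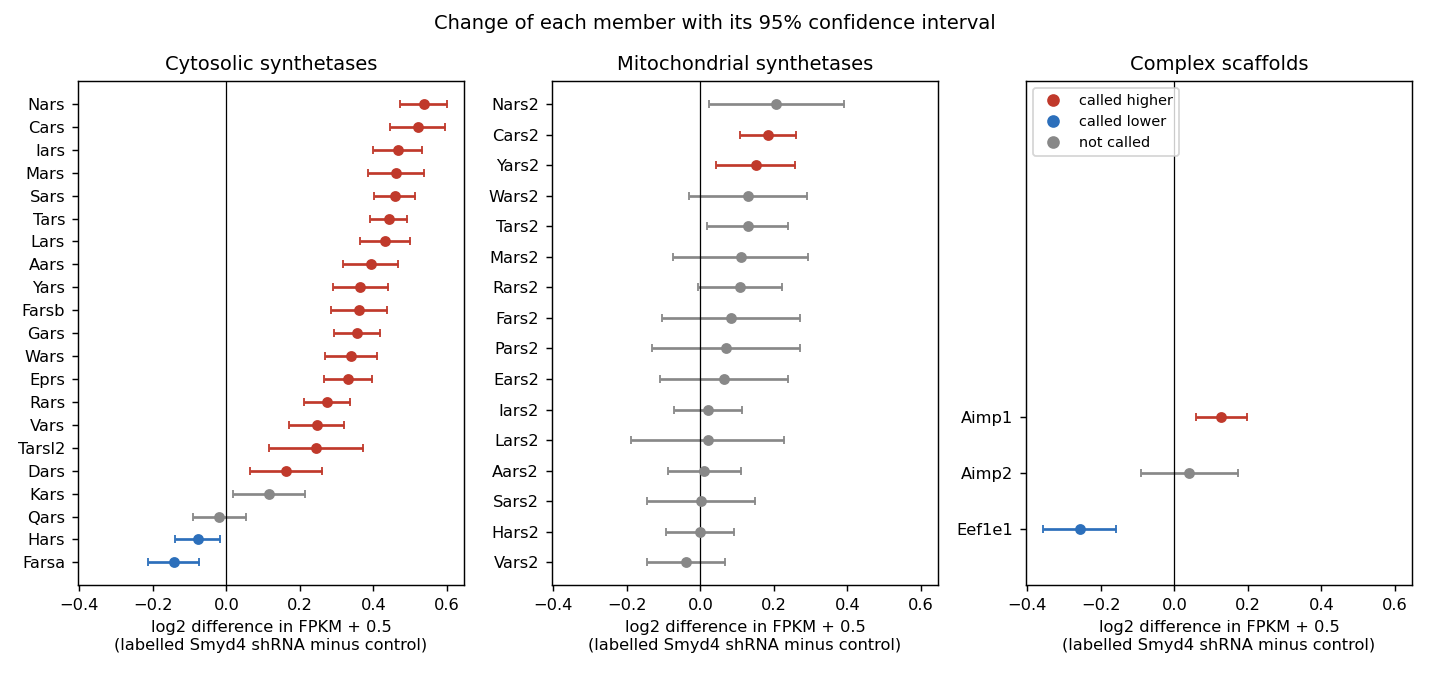
Log2 difference in FPKM + 0.5 between the 3 labelled and the 3 control libraries for 40 of the 41 genes, with points for the limma estimate and bars for its 95% confidence interval. The cytosolic synthetases run from -0.14 for Farsa to 0.54 for Nars, the mitochondrial ones from -0.04 for Vars2 to 0.21 for Nars2, and Eef1e1 lies lowest of all at -0.26.

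The cytosolic synthetases were also the higher set in FPKM. Summed over the 21 genes, they stood at 1252, 1228 and 1260 FPKM in the control libraries and at 1626, 1571 and 1606 FPKM in the labelled libraries. The groups did not overlap, and the mean went from 1247 ± 16.4 to 1601 ± 27.6 FPKM (SD, n = 3), which is 28.4% more. The 17 mitochondrial genes summed to 113, 112 and 109 FPKM in the control and to 117, 119.8 and 116 FPKM in the labelled libraries, a mean gain of 5.51%. For this sum too the groups did not overlap. All 41 genes together took 0.577%, 0.569% and 0.574% of the recovered reads in the control and 0.718%, 0.706% and 0.714% in the labelled libraries. FPKM divides by the length set for each gene, 18102 bases for Eprs and 2632 for Nars, so a ranking of genes by level depends on those lengths. In the control libraries the highest synthetase was Nars at 183.6 ± 4.68 FPKM and the lowest cytosolic one was Tarsl2, a threonyl-tRNA synthetase-like enzyme, at 3.13 ± 0.135 FPKM.

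**Figure D2:**
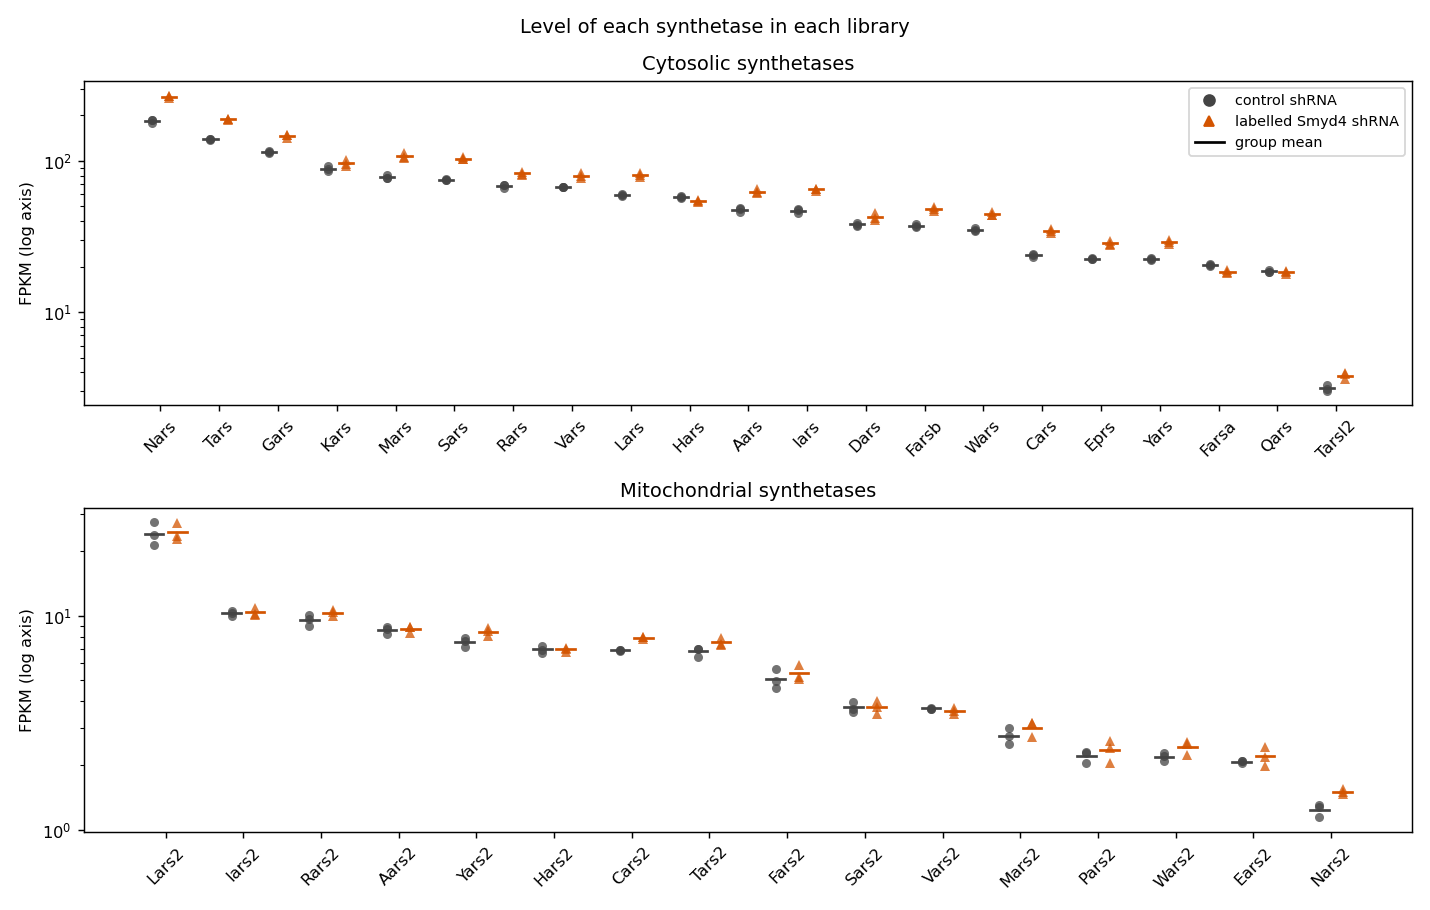
FPKM of the cytosolic and 16 of the 17 mitochondrial synthetases in each library on a log axis, cytosolic enzymes above and mitochondrial enzymes below, ordered by control mean; circles are control libraries, triangles labelled libraries and short lines group means. For Nars, Tars and Gars the labelled libraries all lie above the control libraries, while for Lars2, Iars2 and Hars2 the groups overlap.

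The 8 largest cytosolic changes all went up, and in each the lowest labelled library stood above the highest control library. Nars, which charges asparagine tRNA (chromosome 18 from 64499665 to 64516557, GRCm38), had 187, 178 and 185 FPKM in the control and 269.6, 262 and 268 FPKM in the labelled libraries. It rose 1.45-fold, a log2 difference of 0.54 (SE 0.03) at a limma adjusted p of 2.3e-06. Asparagine is also the product of Asns, asparagine synthetase, which rose from 105 ± 0.596 to 177 ± 2.46 FPKM, a log2 difference of 0.76 (limma, adjusted p = 1.75e-07).

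Cars, the cysteinyl enzyme (chromosome 7 from 143557230 to 143600090), had 24.3, 23.2 and 23.7 FPKM in the control and 35.3, 34.1 and 33.3 FPKM in the labelled libraries. It rose 1.44-fold from a much lower FPKM than Nars (limma, log2 0.52, adjusted p = 6.74e-06). Iars, which charges isoleucine tRNA (chromosome 13 from 49682100 to 49734267), had 47.0, 47.7 and 45.4 FPKM against 65.6, 63.3 and 65.3 FPKM. It rose 1.39-fold and was the largest change among the enzymes of the multisynthetase complex (limma, log2 0.47, adjusted p = 6.46e-06).

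Mars, the methionyl enzyme, charges both the initiator and the elongator tRNA (chromosome 10 from 127296221 to 127311786). It had 77.1, 76.9 and 80.7 FPKM in the control and 112, 105 and 107 FPKM in the labelled libraries, a 1.38-fold rise (limma, log2 0.46, adjusted p = 1.6e-05). Mars overlaps Ddit3, the stress transcription factor CHOP, on the opposite strand. The sources used here do not state a strand setting for the counting, and without one the reads of the overlap cannot be told apart. Ddit3 itself went from 24.8 ± 1.24 to 32.5 ± 0.851 FPKM (limma, log2 0.38, adjusted p = 0.000145).

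Sars, the seryl enzyme that also serves selenocysteine tRNA (chromosome 3 from 108424865 to 108445209), had 74.97, 74.7 and 76.2 FPKM against 105, 102 and 103 FPKM. Tars, the threonyl enzyme (chromosome 15 from 11383663 to 11399658), had 137, 139 and 139 FPKM against 189.7, 187 and 188 FPKM. They rose 1.38-fold and 1.36-fold (limma, adjusted p = 2.63e-06 for Sars and 1.98e-06 for Tars). Lars, the leucyl enzyme and a leucine sensor upstream of mTORC1 (chromosome 18 from 42202350 to 42262122), had 60.6, 58.4 and 59.4 FPKM against 80.3, 78.2 and 82.7 FPKM. Aars, the alanyl enzyme (chromosome 8 from 111033144 to 111057664), had 48.1, 46.2 and 48.5 FPKM against 64.8, 61.1 and 62.0 FPKM. Their folds were 1.35 and 1.32, again with no overlap between groups (limma, adjusted p = 1.1e-05 for Lars and 3.3e-05 for Aars).

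The next cytosolic enzymes rose by smaller amounts. Yars, the tyrosyl enzyme, went from 22.5 ± 0.434 to 29.1 ± 0.931 FPKM, a 1.29-fold rise. Wars, the tryptophanyl enzyme, went from 35.1 ± 0.704 to 44.5 ± 1.34 FPKM, and Eprs, which charges both glutamate and proline tRNA, from 22.5 ± 0.163 to 28.4 ± 0.764 FPKM. These 3 enzymes rose between 1.26-fold and 1.29-fold. Rars, for arginine, went from 68.3 ± 1.58 to 82.7 ± 1.56 FPKM, and Vars, for valine, from 67.1 ± 0.298 to 79.6 ± 3.20 FPKM. Tarsl2 rose 1.21-fold at a low level, from 3.13 to 3.80 FPKM, and shares a strand with the overlapping gene Tm2d3. Dars, for aspartate, had the smallest rise, 1.12-fold, from 38.0 ± 0.937 to 42.6 ± 2.39 FPKM (limma, adjusted p = 0.0144). Without control replicate 2 its call was lost (limma, adjusted p = 0.0527), and the other 16 cytosolic rises were called under each of the 16 alternative settings that tested them. Tarsl2, below the stricter filter of 5 FPKM, was tested in 15.

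Of Gars and Kars, which supply both cytosol and mitochondria, only Gars was called. Gars, the glycyl enzyme, had 116, 112 and 114 FPKM in the control and 148, 142 and 148 FPKM in the labelled libraries, with no overlap. It rose 1.28-fold (limma, log2 0.36, adjusted p = 2.08e-05). Kars, the lysyl enzyme, had 88.4, 85.2 and 93.1 FPKM against 101, 93.0 and 95.2 FPKM, and the groups overlapped, since control replicate 3 exceeded labelled replicate 2. Its log2 difference of 0.12, with a 95% confidence interval from 0.02 to 0.21, missed the threshold in limma (adjusted p = 0.0514) and was called in 7 of the 16 alternatives, among them edgeR (adjusted p = 0.00726). The difference between Gars and Kars was not tested.

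Cytosolic phenylalanyl-tRNA synthetase is a tetramer of an alpha chain, Farsa, and a beta chain, Farsb, and the 2 mRNAs moved in opposite directions. Their values per library are shown because of that pattern, chosen after the values were seen. Farsa (chromosome 8 from 84856989 to 84869257) had 20.8, 20.2 and 20.4 FPKM in the control and 19.0, 18.0 and 18.5 FPKM in the labelled libraries. Farsb (chromosome 1 from 78417975 to 78488897) had 36.9, 36.5 and 38.4 FPKM against 47.8, 46.7 and 49.6 FPKM. The groups did not overlap for either gene. Farsa fell by 0.14 on the log2 scale (limma, adjusted p = 0.00533) and Farsb rose 1.29-fold (limma, adjusted p = 5.78e-05), and both were called under each of the 16 alternatives. The ratio of Farsb to Farsa was 1.78, 1.81 and 1.88 in the control and 2.52, 2.59 and 2.69 in the labelled libraries, 42.7% higher on average. Farsb overlaps 3 other annotated genes, while no overlap was found for Farsa.

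Hars was called lower and Qars was not called. Hars, the histidyl enzyme, had 56.5, 57.6 and 58.6 FPKM in the control and 53.4, 55.5 and 54.6 FPKM in the labelled libraries, so that every labelled library lay below every control library. The log2 difference was -0.08 (limma, adjusted p = 0.0416), and the call was lost in 9 of the 16 alternatives. The highest adjusted p was 0.131 in DESeq2, where the read counts of Hars are lower bounds. Hars lies head to head with its mitochondrial paralogue Hars2 on chromosome 18, the annotated starts 197 bases apart, and the genes overlap on opposite strands. Hars2 stood at 6.97 ± 0.251 FPKM in the control and 6.96 ± 0.140 FPKM in the labelled libraries. Qars, the glutaminyl enzyme, stood at 18.6 ± 0.397 and 18.4 ± 0.432 FPKM, a log2 difference of -0.02 with a 95% confidence interval from -0.09 to 0.05 (limma, adjusted p = 0.638).

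The multisynthetase complex holds 8 of the cytosolic enzymes (Eprs, Iars, Lars, Mars, Qars, Rars, Kars and Dars) and the 3 scaffold proteins. Of these 11 genes 7 were higher, 1 was lower and 3 were not called, with a median log2 difference of 0.16. Called in either direction were 72.7%, beside 48.3% of all genes tested. Among the 8 enzymes 6 were higher and the exceptions were Qars and Kars. Of the 13 cytosolic synthetases outside the complex 11 were higher and 2, Farsa and Hars, were lower.

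Of the scaffolds 1 was higher, 1 lower and 1 not called. Aimp1, the scaffold p43 that is also released as a cytokine, had 17.5, 17.7 and 18.1 FPKM in the control and 19.5, 19.0 and 19.9 FPKM in the labelled libraries. It rose 1.10-fold without overlap between groups (limma, adjusted p = 0.00934). Aimp2, the scaffold p38, had 16.3, 16.4 and 18.4 FPKM against 18.5, 17.4 and 16.6 FPKM, and the groups overlapped (limma, log2 0.04, adjusted p = 0.586). Aimp2 overlaps the eIF2 kinase gene Eif2ak1 on the opposite strand. Eef1e1, the scaffold p18 (chromosome 13 from 38645698 to 38659028), had 45.9, 43.5 and 47.8 FPKM in the control and 38.7, 39.3 and 36.5 FPKM in the labelled libraries. It fell by 0.26 on the log2 scale, with a 95% confidence interval from -0.36 to -0.16, the largest fall among the 41 genes (limma, adjusted p = 0.00169). Aimp1 and Eef1e1 were called under each of the 16 alternatives.

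Because synthetase genes are known ATF4 targets, their promoters were searched for TGATGNAA, the core of the C/EBP-ATF response element to which ATF4 binds with C/EBP partners, on both strands (TTNCATCA on the other). RefSeq promoters of 300 bases, 250 before and 50 after the start (GRCm38.p6), were at hand for 31 of the 41 genes. The motif was in a promoter of 5 of the 14 cytosolic genes, of none of the 14 mitochondrial genes and of none of the 3 scaffold genes, beside 4.51% of all 27025 genes in the same table (3.97% of 32851 promoters). The 5 were Aars, Gars, Iars, Tars and Yars. Dars, Eprs, Farsb, Mars, Sars and Tarsl2 were called higher too and had no match in this window. Of the cytosolic genes Cars, Hars, Lars, Nars, Rars, Vars and Wars had no promoter at hand and were not searched. All of these but Hars were called higher, and Nars and Cars had the largest rises of the cytosolic set. A match is a stretch of letters and no measured binding site, and no other motif was searched. The windows from 120 bases before to 20 bases after the RefSeq start are shown for these 5 genes, 5′ to 3′ along the gene, with the motif in capitals; Aars holds it at both ends.
Aars, chr8:111033722-111033861, plus strand: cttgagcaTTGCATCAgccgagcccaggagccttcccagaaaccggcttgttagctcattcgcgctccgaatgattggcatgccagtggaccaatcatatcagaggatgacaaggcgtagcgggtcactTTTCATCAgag
Gars, chr6:55037881-55038020, plus strand: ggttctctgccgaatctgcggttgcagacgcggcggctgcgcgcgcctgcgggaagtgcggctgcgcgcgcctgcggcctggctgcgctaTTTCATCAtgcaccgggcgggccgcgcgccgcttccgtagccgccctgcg
Iars, chr13:49682010-49682149, plus strand: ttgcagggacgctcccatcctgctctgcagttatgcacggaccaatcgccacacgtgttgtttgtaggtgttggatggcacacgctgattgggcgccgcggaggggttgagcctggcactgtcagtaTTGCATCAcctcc
Tars, chr15:11399639-11399778, minus strand: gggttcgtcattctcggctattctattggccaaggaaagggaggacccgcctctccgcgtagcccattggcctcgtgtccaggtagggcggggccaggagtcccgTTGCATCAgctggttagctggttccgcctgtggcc
Yars, chr4:129189783-129189922, plus strand: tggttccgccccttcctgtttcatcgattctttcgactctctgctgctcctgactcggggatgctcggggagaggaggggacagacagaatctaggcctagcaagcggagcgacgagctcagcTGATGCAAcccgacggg

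Of the mitochondrial synthetases 3 of 17 were called, each of them higher. Among the 8155 genes whose mean lies in the same range, 1.37 to 24.4 FPKM, 45.9% were called and 21.8% were called higher. Cars2, the cysteinyl enzyme that also makes persulfides, had 6.95, 6.86 and 6.90 FPKM in the control and 7.96, 7.78 and 7.98 FPKM in the labelled libraries. It rose 1.15-fold with no overlap between groups (limma, log2 0.18, adjusted p = 0.00247), and the call was lost only in DESeq2 (adjusted p = 0.14). The read counts of Cars2 used there are lower bounds. Cars2 overlaps Naxd on the opposite strand. Yars2, the tyrosyl enzyme linked to a human mitochondrial myopathy, had 7.18, 7.63 and 7.86 FPKM in the control and 8.49, 8.07 and 8.76 FPKM in the labelled libraries. The groups did not overlap, and it rose 1.12-fold (limma, log2 0.15, adjusted p = 0.0294), a call lost in 6 of the 16 alternatives. The number of mitochondrial rises ran from 1 to 6 over these settings, with 1 left without control replicate 2 or without labelled replicate 1.

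The remaining 14 mitochondrial enzymes were not called. Nars2 and Tars2 came nearest, and for both the labelled libraries all lay above the control libraries. Nars2, the lowest of the set, stood at 1.28, 1.14 and 1.30 FPKM in the control and 1.499, 1.56 and 1.47 FPKM in the labelled libraries. Its log2 difference of 0.21 was the largest of the mitochondrial set but rested on 189 to 274 reads per library (limma, adjusted p = 0.0632). Tars2 went from 6.83 ± 0.332 to 7.52 ± 0.299 FPKM (limma, adjusted p = 0.0557). In edgeR both passed, at adjusted p = 0.0107 for Nars2 and 0.0171 for Tars2. In DESeq2 neither did, at adjusted p = 0.0676 for Nars2 and 0.0628 for Tars2. Nars2 was called in 2 of the 15 alternatives that tested it and Tars2 in 3 of 16.

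Lars2, the highest mitochondrial synthetase in FPKM, had 27.3, 23.9 and 21.5 FPKM in the control and 23.7, 26.99 and 22.9 FPKM in the labelled libraries. It varied within groups more than between them, and its standard error of 0.09 was the widest of all 41 genes. Wars2, Mars2, Rars2, Fars2, Pars2 and Ears2 had log2 differences between 0.06 and 0.13. Iars2, Aars2, Sars2, Hars2 and Vars2 lay between -0.04 and 0.02. The 95% confidence interval of 16 of the 17 mitochondrial genes ended below the cytosolic median of 0.36, and the exception was Nars2, whose interval reached 0.39. Standard errors ran from 0.03 to 0.09 in the mitochondrial set and from 0.02 to 0.06 in the cytosolic set.

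**Figure D3:**
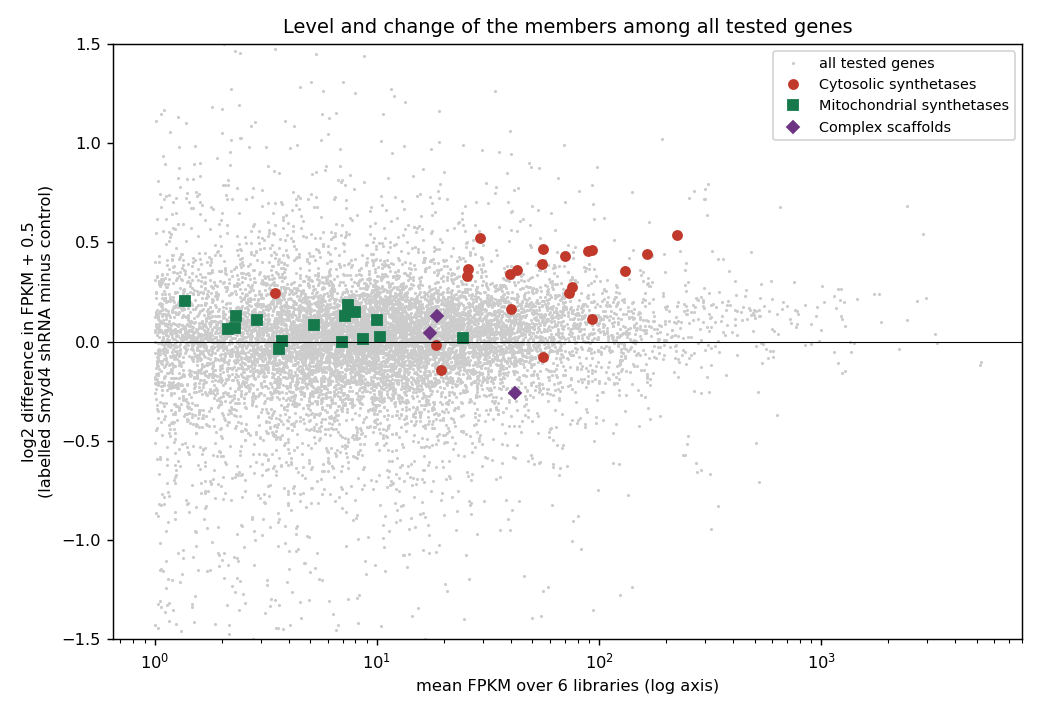
Mean FPKM over the 6 libraries (log axis) against the log2 difference for all 11325 genes tested (grey) and 40 of the 41 members (coloured by compartment); 135 genes lie outside the plotted range of ±1.5. The cytosolic synthetases lie mostly above the zero line at high FPKM, and the mitochondrial ones sit close to it at lower FPKM.

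For amino acids with separate cytosolic and mitochondrial enzymes, the ratio of the 2 FPKM values was taken within each library. It does not depend on library scaling. Its level depends on the 2 gene lengths, while its change between libraries does not. Of 18 such ratios, 13 were higher in every labelled library than in every control library, 5 overlapped and none was lower throughout. The ratios are not independent, since Eprs and Fars2 each enter 2 of them, and no such share was computed over other gene pairs. With 3 libraries a group no exact test can go below p = 0.1, so these are given without a test. The ratio of Sars to Sars2 went from 20.2 ± 1.14 to 27.7 ± 1.58, the largest gain at 37.4%. The ratio of Iars to Iars2 was 4.58, 4.54 and 4.56 in the control and 6.01, 6.21 and 6.46 in the labelled libraries. That of Nars to Nars2 went from 148 ± 6.94 to 177 ± 7.30, and that of Lars to Lars2 from 2.48 ± 0.275 to 3.30 ± 0.364. Those of Hars to Hars2, of Rars to Rars2, and of Farsa and Farsb to Fars2 were among the overlapping ratios.

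**Figure D4:**
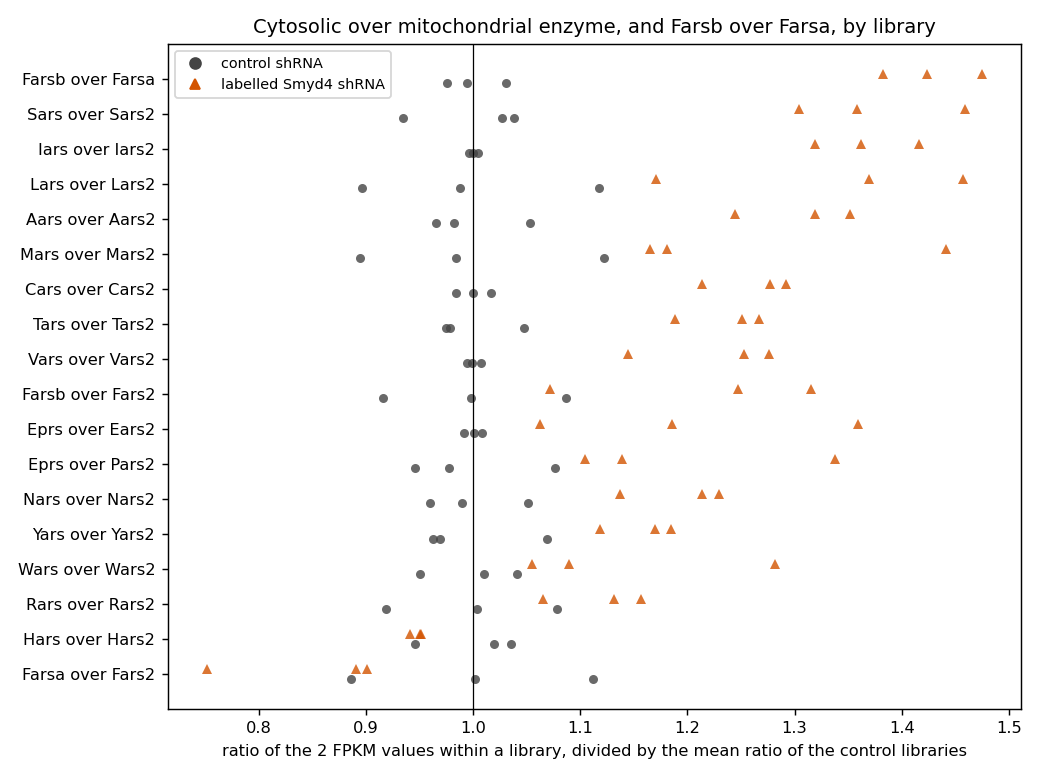
Ratio of the cytosolic to the mitochondrial enzyme for 17 of the 18 pairs, and of Farsb to Farsa, in each library, divided by the mean ratio of the control libraries; circles are control and triangles labelled libraries. Farsb over Farsa shows the largest shift, 42.7%, and Farsa over Fars2 the lowest, with overlapping groups.

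Synthetases fall into 2 structural classes by the fold of their catalytic domain. Of 18 class I enzymes 10 were higher and none lower, with a median log2 difference of 0.17. Of 19 class II enzymes 9 were higher and 2, Farsa and Hars, lower, with a median of 0.16. In either direction 55.6% of class I and 57.9% of class II enzymes were called, beside 48.3% of all genes tested. Eprs holds a catalytic domain of each class and was counted in neither.

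The other genes of the pathway come from lists set by function, with earlier results of these data known. Over all genes tested 25.1% were called higher and 23.3% lower, 48.3% in either direction. Of 12 further charging and editing genes 11 were tested, 5 were higher and none lower, with a median log2 difference of 0.10. The share called, 45.5%, was near the 48.3% of all genes, but all of these calls were higher, beside 25.1% of all genes. Gatc, Qrsl1 and Gatb form the mitochondrial amidotransferase that makes glutaminyl-tRNA in the absence of a mitochondrial glutaminyl enzyme. Gatc rose from 18.3 ± 0.214 to 23.0 ± 0.890 FPKM and Qrsl1 from 5.72 ± 0.168 to 6.84 ± 0.344 FPKM, while Gatb stood at 3.36 ± 0.251 and 3.55 ± 0.158 FPKM (limma, adjusted p = 0.386). Dtd1, which removes D-amino acids from tRNA, rose from 3.69 ± 0.0551 to 5.58 ± 0.522 FPKM (limma, adjusted p = 0.000328).

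Among 34 tested genes of tRNA processing, modification and export 14 were higher and 6 lower, with a median log2 difference of 0.07. The share called was 58.8%, beside 48.3% of all genes tested. Xpot, the nuclear exporter of tRNA, rose from 44.3 ± 0.501 to 63.8 ± 0.509 FPKM, a log2 difference of 0.52, beside 0.54 for Nars and 0.52 for Cars (limma, adjusted p = 1.14e-06). Trmt61a and Trmt6 are the catalytic and the partner subunit of a tRNA methyltransferase. Trmt61a rose from 9.52 ± 0.512 to 13.4 ± 0.139 FPKM (limma, adjusted p = 4.88e-05), and Trmt6 fell from 7.46 ± 0.167 to 6.31 ± 0.104 FPKM (limma, adjusted p = 0.0014). Pop4, a subunit of RNase P, fell from 5.52 ± 0.130 to 4.65 ± 0.240 FPKM. Without control replicate 2 the list had 3 falls in place of 6.

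RNA polymerase III, which transcribes tRNA genes, had 2 of 21 genes higher and 3 lower, with a median of -0.02. The share called was 23.8%, beside 48.3% of all genes tested. Polr3g, an alternative subunit of the polymerase, fell from 4.15 ± 0.387 to 2.91 ± 0.246 FPKM (limma, adjusted p = 0.00205). The 2 higher genes, Polr3d (15.9 ± 0.347 to 17.1 ± 0.196 FPKM) and Polr1c (28.8 ± 0.423 to 30.5 ± 0.705 FPKM), kept their calls in 10 and 6 of the 16 alternatives, and neither was called without labelled replicate 2. Of 9 translation elongation factors 4 were higher and none lower, with a median of 0.08. The share called, 44.4%, was near the 48.3% of all genes tested, but all of these calls were higher, beside 25.1% of all genes. The mitochondrial factors Tufm, from 43.8 ± 2.90 to 50.6 ± 1.93 FPKM, and Tsfm, from 19.0 ± 0.241 to 21.2 ± 0.681 FPKM, were among them. The 4 rises were 2 without control replicate 2 and also without labelled replicate 1 or 3.

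The genes that sense uncharged tRNA and act on eIF2 did not share a direction. Of 15, 4 were higher and 5 lower, with a median log2 difference of -0.0026. The share called was 60.0%, beside 48.3% of all genes tested. Eif2ak4, the sensor kinase, fell from 4.99 ± 0.0198 to 4.41 ± 0.111 FPKM (limma, adjusted p = 0.0124). Its activator Gcn1, listed under the older symbol Gcn1l1, stood at 9.47 ± 0.147 and 9.83 ± 0.251 FPKM (limma, adjusted p = 0.257). Atf4 mRNA stood at 208 ± 1.83 and 216 ± 5.02 FPKM, with a log2 difference of 0.06 that did not pass the test (limma, adjusted p = 0.11). Its groups narrowly did not overlap, at most 209.9 FPKM in the control and at least 210.5 FPKM in the labelled libraries. The labelled libraries lay above every control library for 30.2% of all genes tested. Ppp1r15a, a stress-induced subunit of the eIF2 phosphatase, fell from 7.21 ± 0.230 to 5.21 ± 0.135 FPKM, and its constitutive counterpart Ppp1r15b rose from 29.2 ± 0.654 to 33.3 ± 0.435 FPKM. Of the subunits of eIF2B, which reloads eIF2 with GTP, Eif2b2 rose from 50.4 ± 0.687 to 56.3 ± 1.26 FPKM and Eif2b3 fell from 4.70 ± 0.255 to 3.93 ± 0.143 FPKM.

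Of 22 known ATF4 targets other than synthetases 20 were higher and 2 lower, beside 25.1% and 23.3% of all genes tested. Their median log2 difference was 0.71. Atf5 rose from 126 ± 3.45 to 256 ± 6.63 FPKM, while Atf3 fell from 7.02 ± 0.333 to 4.28 ± 0.145 FPKM and Cebpb from 52.1 ± 1.43 to 40.3 ± 2.996 FPKM. This list too was set with earlier results of these data known, so its counts are a description only. ATF4 activity itself was not measured.

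The authors' deposited table of called genes holds 22 of the 41 members, 20 as higher and 2, Farsa and Eef1e1, as lower. Of these, 21 were called here with the same sign, and Kars was not. In the authors' deposited table Kars has a log2 fold change of 0.12 and an adjusted p of 0.013. Hars, Cars2 and Yars2 were called here and are not in the authors' deposited table.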

How the data were processed

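RNA of 6 libraries labelled HL-1 was compared, 3 per group, grouped by the sample titles. TopHat2 2.0.9, Bowtie2 2.0.6 and the build GRCm38 are named per the submitters' processing notes. The sources used here do not give the read counter, its strand setting, the annotation or the authors' test. FPKM values were deposited by the authors for 22246 genes, of which 22134 matched a symbol. A second deposited table, of 5616 genes, holds each library's normalized signal, the authors' log2 fold changes, and the authors' p-values and adjusted p-values. FPKM times length over that signal is 1 constant, 41.6, so FPKM carries the authors' size factors. Such factors assume that most genes do not change. Whole reads were recovered from the steps of the values (100% whole within 1e-04 in the second table) and used as counts for edgeR and DESeq2. Outside that table, lengths were searched for that made all values of a gene whole within 0.01. The 99.999% of FPKM values whole within 0.01 follows largely from that search and is no check of the counts. For 9849 of the 22246 genes the smallest such length was taken, so their counts and the library totals are lower bounds. Lengths came from the authors or the annotation for 36 of the 41 members, and the read counts of Aars2, Cars2, Fars2, Hars and Lars2 are lower bounds. Of the members, 19 overlap another annotated gene.

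The comparison used limma 3.58.1 (R 4.3.3; trend, empirical Bayes) on log2(FPKM + 0.5) with a mean of at least 1 FPKM, Benjamini-Hochberg adjustment over all 11325 genes and a threshold of 0.05. A run on simulated data changed far fewer genes than were called here and is no check of these calls. The 16 alternatives were pseudocounts of 0.1 and 1, no filter or one at 5 FPKM, median-of-ratios, TMM and quantile scaling, a replicate block, each library left out, edgeR 4.0.16 and DESeq2 1.42.0. No replicate pair agreed within sampling noise (lowest chi-square per degree of freedom 1.64). Errors are SD over 3 libraries, folds are ratios of mean FPKM, and sequences are from RefSeq. Values per library are given for the 8 largest called cytosolic changes, called mitochondrial genes, the scaffolds, Gars and Kars; Smyd4, Farsa, Farsb, Hars, Nars2 and Lars2 were added. Some genes that these rules name are counted but not reported here by name. From each other list up to 2 called genes per direction with the smallest adjusted p are named, besides Atf4, Eif2ak4, Gcn1, Qrsl1, Gatb and Gatc, and Ddit3 because it overlaps Mars. Members and lists were chosen with earlier results of these data known.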

Additional observations from a re-analysis of the deposited data

How the results depend on the processing

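Over all genes tested, higher and lower calls numbered 2839 and 2635 of 11325 as reported, and 2582 and 3037 of 22246 with no filter. A filter of 5 FPKM gave 2404 and 1933 of 7833. DESeq2 gave 2602 and 3053 of 16636, and edgeR 3206 and 3619 of 13764. Quantile scaling gave 3163 and 2465 of 11325, TMM 2859 and 2591, and median-of-ratios 2648 and 2786 of 11324. With a library left out they were 2299 to 2567 and 2274 to 2442. Over the 16 alternatives the 17 cytosolic rises became 16 to 18. The 2 cytosolic falls, which are also the class II falls, became 1 each with no filter, TMM, the replicate block and DESeq2, and 1 to 2 with a library left out. Farsa was called under each of the 16. Mitochondrial rises, 3 as reported, numbered 1 with no filter and in DESeq2, 5 in edgeR, 6 under quantile scaling and 1 to 3 with a library left out (1 without control replicate 2 or labelled replicate 1). Other charging enzymes went from 5 higher to 3 (filter of 5 FPKM, DESeq2), and tRNA processing from 6 lower to 3 (no filter) and to 3 to 5 with a library left out (3 without control replicate 2). RNA polymerase III went from 2 higher to 1 (median-of-ratios, edgeR, DESeq2), 4 (quantile) and 0 to 2 with a library left out (0 without labelled replicate 2). Elongation factors went from 4 higher to 2 (quantile) and 2 to 3 with a library left out, and tRNA sensing from 5 lower to 2 (filter of 5 FPKM). Where fewer genes or libraries entered, that is part of the setting; otherwise the cause was not tested.

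Signs reversed only for uncalled mitochondrial genes with log2 differences near 0. These were Hars2 (0.00081 under TMM, 0.037 under quantile scaling, -0.025 to 0.023 with a library left out), Sars2 (-0.0078 under median-of-ratios, -0.0027 in edgeR, -0.042 to 0.049 with a library left out) and Vars2 (0.011 under quantile scaling). With a library left out Aars2 ranged from -0.017 to 0.042, Iars2 from -0.013 to 0.040 and Lars2 from -0.061 to 0.109.

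Deviations of same-numbered libraries correlated at -0.03, 0.02 and 0.01, so the numbers were not taken as pairs. With the replicate block 22 members were higher and 2 lower, and 2667 genes higher and 2474 lower over the whole table, against 2839 and 2635 without it. Kars was called (limma, adjusted p = 0.042) and Hars was not. Reads per library went down to 152 to 189 for Pars2, and the part of depth in missed calls was not tested.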
